A study of Mus musculus with 33 samples.

Results

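The VH5 and VH2 genes lie at the end of the mouse Igh variable region that is nearest to the D and J segments. Of the 183 VH genes that the study lists with mm9 positions, 32 belong to these families, and the 26 described here are all of them except IGHV5-1, IGHV5-2, IGHV2-2, IGHV5-4, IGHV2-3 and IGHV5-6. The 6 were set apart because the study treats the proximal genes in use up to IGHV5-6 as a group of their own, and the members are all the rest by family name and list membership. They comprise 17 VH5 and 9 VH2 genes. The 6 genes left out are called the left-out proximal genes below.

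Recombination was measured by VDJ-seq in 8 libraries of immature B cells with the genotype Igh(B1.8hi/+), in which DNA is captured next to the JH segments and the VH gene joined there is read. The cells were sorted as IgMa cells from bone marrow of mice aged 4 to 5 weeks on a C57BL/6 background. In these cells one Igh allele carries the B1-8hi gene, an already assembled heavy chain built on VH1-72, and the rearrangements of the other, wild-type allele are what the VH values show. All 8 libraries carry both alleles and there is no Igh library of another genotype or stage, so the tests below compare sets of genes within a library or relate their sums across the 8 libraries. The labels do not say how many animals stand behind a library, and p-values measure only the spread between these 8 samples.

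The study expresses the use of a VH gene as the percentage of all VDJH and DJH rearrangements after reads of IGHV1-72 and IGHV1-53 were removed. The deposited values are percentages that still hold both genes and whose total is not given in the sources used here, so they are on another scale than the study's and only their ratios within a library are free of that total. All rows of a file summed to between 61.2% and 62.7%, of which IGHV1-72 took 52.2% to 53.9%. A VH gene is joined to a DJH segment after RAG proteins cut at its recombination signal, which consists of a heptamer and a nonamer separated by a spacer and lies directly behind the coding end. Several genes of the VH5 and VH2 families also carry a binding site for the architectural protein CTCF close behind this signal. CTCF sites are known as places where cohesin, the ring that extrudes chromatin loops, is held. Genes near the D and J segments can be used without long loops, whereas distal genes depend on contraction of the locus, and expression of a heavy chain limits further VH joining in pre-B cells. RefSeq classes 14 of the members as V segments and 12 as pseudogenes, and all 26 were matched there by symbol.

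The signal was found behind 15 of the 26 members and behind all 6 left-out proximal genes, when at least 6 of 7 bases of the heptamer CACAGTG and 6 of 9 bases of the nonamer ACAAAAACC were required at a spacer of 23 bases. The match limits were chosen after the sequences had been seen. The 15 members were the 14 V segments and the pseudogene IGHV5-21. In all 183 listed VH genes the same search found a signal for 30.1%, and for 69.4% when a spacer of 22 to 24 bases was allowed, which added no member. The letters CCNNNAGNNGGC of the CTCF core motif, searched on both strands within 100 bases behind the gene, were present behind 13 members and all 6 left-out genes, each time on the gene's own strand, and behind 17.5% of all listed genes. The stretches from heptamer to core are printed for the genes on which the results turn, in capitals for heptamer, nonamer and core, from the mm9 assembly on the minus strand. The first 4 are the genes that share one signal of 39 bases, and 2 of the 4 are members.
IGHV5-4, chr12:114835587-114835656: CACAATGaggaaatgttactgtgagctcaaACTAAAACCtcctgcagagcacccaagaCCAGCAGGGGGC
IGHV5-6, chr12:114863647-114863716: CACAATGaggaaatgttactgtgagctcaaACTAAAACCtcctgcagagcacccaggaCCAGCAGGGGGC
IGHV5-12, chr12:114940265-114940334: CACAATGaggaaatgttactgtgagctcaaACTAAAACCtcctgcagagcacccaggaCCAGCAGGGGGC
IGHV5-9-1, chr12:114974255-114974321: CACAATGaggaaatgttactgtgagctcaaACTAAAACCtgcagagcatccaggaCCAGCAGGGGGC

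The stretch of 70 bases behind the member IGHV5-12 was identical to the one behind the left-out gene IGHV5-6. Behind IGHV5-9-1 the signal was the same, but the core followed after 16 bases in place of 19. These 4 genes and the left-out IGHV5-2 and IGHV2-3 carry the heptamer CACAATG, and the other 13 members with a signal carry CACAGTG. The next stretches belong to further members whose values are compared below, and to the left-out gene IGHV2-2.
IGHV5-9, chr12:114899910-114899979: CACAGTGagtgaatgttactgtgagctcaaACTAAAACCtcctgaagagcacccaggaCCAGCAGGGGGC
IGHV5-17, chr12:115097290-115097359: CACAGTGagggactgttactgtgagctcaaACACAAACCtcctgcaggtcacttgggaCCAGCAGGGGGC
IGHV5-16, chr12:115076667-115076736: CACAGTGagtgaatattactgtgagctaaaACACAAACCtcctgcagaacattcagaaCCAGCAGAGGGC
IGHV2-2, chr12:114826406-114826477: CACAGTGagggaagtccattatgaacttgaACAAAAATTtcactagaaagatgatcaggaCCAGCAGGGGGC
IGHV2-4, chr12:114891430-114891501: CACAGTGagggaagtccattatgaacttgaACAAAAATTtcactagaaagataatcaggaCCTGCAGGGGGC
IGHV2-5, chr12:114923621-114923692: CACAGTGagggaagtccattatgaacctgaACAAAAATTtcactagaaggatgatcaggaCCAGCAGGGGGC
IGHV2-9, chr12:115117235-115117306: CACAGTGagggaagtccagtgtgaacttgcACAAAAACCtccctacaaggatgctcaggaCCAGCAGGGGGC

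IGHV2-9 was the member with the best match to the consensus, with all 7 heptamer and all 9 nonamer bases. IGHV2-4 shared its whole signal with the left-out gene IGHV2-2, which stands beside it for that reason. The last sequences are those of the members that have a signal but were listed at 0 in most or all libraries. IGHV2-9-1 is added because its signal is the same as that of IGHV2-6-8.
IGHV2-9-1, chr12:115007989-115008060: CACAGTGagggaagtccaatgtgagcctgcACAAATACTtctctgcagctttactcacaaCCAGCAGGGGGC
IGHV2-6-8, chr12:115034277-115034348: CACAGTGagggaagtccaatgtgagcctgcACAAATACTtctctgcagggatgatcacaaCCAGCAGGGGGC
IGHV5-21, chr12:115558169-115558239: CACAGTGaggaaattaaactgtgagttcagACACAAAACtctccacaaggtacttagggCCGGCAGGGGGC
IGHV5-12-4, chr12:115000421-115000459: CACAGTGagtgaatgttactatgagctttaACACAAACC
IGHV2-7, chr12:115045486-115045524: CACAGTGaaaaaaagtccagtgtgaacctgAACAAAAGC

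No core motif was found within the window behind IGHV5-12-4 and IGHV2-7, so that only their signals are shown. For the other 11 members no signal met the limits, and no core was found. The nonamer marked behind IGHV2-7 is the one at a spacer of 23 bases, which just met the limit with 6 of 9 bases. Read at a spacer of 24 bases, its letters begin with ACAAAAGC, closer to the consensus, so the marked place is uncertain.

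Of the 26 members, 9 were listed above 0 in all 8 libraries, and over all 183 listed VH genes the share was 23%. A further 3 members, IGHV2-9, IGHV5-15 and IGHV2-7, and the pseudogene IGHV5-21 were above 0 in 7, 5, 1 and 1 libraries, which gives 13 members above 0 in at least 1 library, against 65.0% of all listed genes. The remaining 13 were listed at 0 in every library. They are the VH2 genes IGHV2-1, IGHV2-6-8 and IGHV2-8 and the VH5 genes IGHV5-3, IGHV5-5, IGHV5-7, IGHV5-8, IGHV5-10, IGHV5-11, IGHV5-12-4, IGHV5-13, IGHV5-18 and IGHV5-19. The files give no read numbers, so depth is unknown and a listed 0 has no upper limit. The smallest value above 0 of any gene ranged from 0.000751% to 0.00212% between libraries.

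The zeros followed the sequence classes. All 11 members without a signal were listed at 0 in all 8 libraries, whereas 13 of the 15 with a signal had a value in at least 1 library. Of the 13 members with both a signal and a core, 12 had a value and 9 had one in all libraries. The exception was IGHV2-6-8, a V segment listed at 0 throughout although its signal is letter for letter that of IGHV2-9-1. Among the 2 members with a signal and no core, IGHV5-12-4 was listed at 0 and IGHV2-7 had a single value of 0.00267% in library 8. Of the 151 listed genes outside both sets, 34 had a signal with a spacer of 23 bases, and 28 of these had a value in at least 1 library, beside 72 of the 117 without one. With a spacer of 22 to 24 bases, 85 of 106 genes with a signal had a value, beside 15 of 45 without one.

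**Figure D1:**
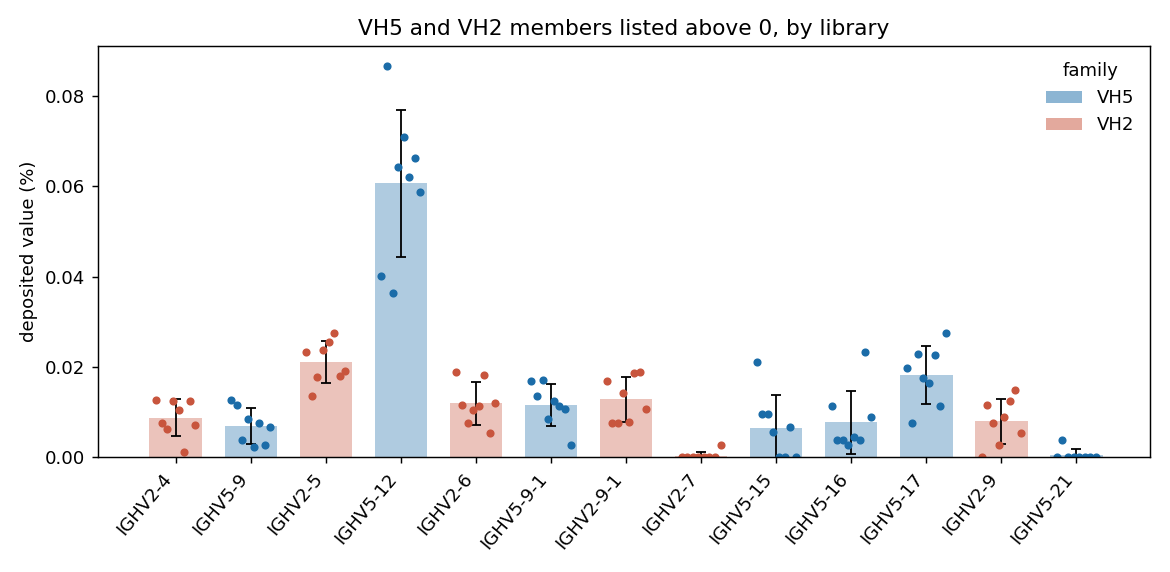
Deposited value of the 13 members listed above 0 in at least 1 library, in percent as deposited, in the order of position from the D and J segments outward. Points are the 8 libraries, bars the mean and error bars the SD. IGHV5-12 lies above every other member in each library, from 0.0363% to 0.0867%, and IGHV2-7 and IGHV5-21 have a single value above 0 each.

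IGHV5-12 was the most used member. The gene, a VH5 V segment at chr12:114940337-114940630, lies 76.6 kb beyond IGHV5-6. Its values over the 8 libraries ranged from 0.0363% through a median of 0.0632% to 0.0867%, with a mean of 0.0607% ± 0.0162 (SD, n = 8). The lowest values were those of libraries 3 and 1, and the highest that of library 2. IGHV5-12 exceeded IGHV2-5, the second member, in 8 of 8 libraries and contributed between 20.7% and 45.9% of the members' sum, with a mean of 34.5% ± 8.10 (SD, n = 8).

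IGHV5-12 overlapped the left-out gene IGHV5-1 in level, which lies nearest to the D segments and averaged 0.0691% ± 0.0103 (SD, n = 8). IGHV5-1 was the higher of the 2 in 5 of 8 libraries. IGHV5-6, which has the identical stretch behind its coding end, had 0.0918% ± 0.0217 (SD, n = 8) and was above IGHV5-12 in 8 of 8 libraries, by between 1.19-fold and 2.74-fold. IGHV5-9-1 lies 34.0 kb further out than IGHV5-12 and carries the same signal, but had 0.0117% ± 0.00469 (SD, n = 8), and was the lower of the 2 in 8 of 8 libraries. The 4 genes with this one signal therefore ran from 0.185% ± 0.0225 (SD, n = 8) at IGHV5-4 through IGHV5-6 and IGHV5-12 to IGHV5-9-1, in the order of their position and in the same order in each library. These are descriptions of chosen genes and were not tested.

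IGHV2-5 and IGHV5-17 followed IGHV5-12. IGHV2-5, a VH2 V segment 60.0 kb beyond IGHV5-6, ranged from 0.0135% to 0.0276% with a median of 0.0212% and a mean of 0.0211% ± 0.00472 (SD, n = 8). It was the steadiest member, with an SD of 22.4% of its mean. IGHV5-17 lies much further out, at 233.6 kb, and ranged from 0.00771% to 0.0276% with a median of 0.0187% and a mean of 0.0182% ± 0.00647 (SD, n = 8). IGHV2-5 exceeded IGHV5-17 in 6 of 8 libraries, and their ranges overlapped.

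The order of the next genes was not resolved, nor was the step to them, since IGHV5-17 exceeded IGHV2-9-1 in 6 of 8 libraries, by 0.00539 percentage points on the mean with an SD of 0.00805. IGHV2-9-1, at 144.3 kb, ranged from 0.00765% to 0.0189% (median 0.0125%, mean 0.0129% ± 0.00498, SD, n = 8). IGHV2-6, at 91.2 kb, ranged from 0.00540% to 0.0190% (median 0.0114%, mean 0.0119% ± 0.00468, SD, n = 8). IGHV5-9-1, at 110.6 kb, ranged from 0.00267% to 0.0172% with a median of 0.0118%. In this group each gene exceeded the next in 3 or 4 of 8 libraries, so that neighbours differed by less than their spread.

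The lowest means among the members above 0 in at least 7 libraries were those of IGHV2-4, IGHV2-9, IGHV5-16 and IGHV5-9, but the step to them was not resolved either, since IGHV5-9-1 exceeded IGHV2-4 in 5 of 8 libraries, by 0.00284 percentage points on the mean with an SD of 0.00593. IGHV2-4, at 27.8 kb the nearest of all members with a signal, ranged from 0.00125% to 0.0127% (median 0.00911%, mean 0.00883% ± 0.00400, SD, n = 8). IGHV5-9, at 36.3 kb the second nearest, ranged from 0.00225% to 0.0127% (median 0.00710%, mean 0.00698% ± 0.00391, SD, n = 8). Both therefore lie closer to the D segments than IGHV5-12 and had lower values, IGHV5-9 by 8.70-fold on the means and in 8 of 8 libraries.

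IGHV5-16, at 213.0 kb, ranged from 0.00286% to 0.0234% (median 0.00418%, mean 0.00780% ± 0.00697, SD, n = 8), and its value in library 7 stood apart from the others. IGHV2-9, at 253.6 kb, was listed at 0 in library 1 and reached 0.0149% in library 7, with a median of 0.00833%. In the order IGHV2-4, IGHV2-9, IGHV5-16 and IGHV5-9, each gene exceeded the next in 3 or 4 of 8 libraries. The consensus signal of IGHV2-9 thus went with a level below that of IGHV5-12, whose heptamer differs from the consensus. IGHV5-15, at 201.1 kb, was listed at 0 in libraries 5, 6 and 8 and had at most 0.0212%, in library 1. The pseudogene IGHV5-21, which lies apart from the cluster at 694.5 kb among VH3 genes, had 0.00385% in library 2 and was listed at 0 in the other 7.

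**Figure D2:**
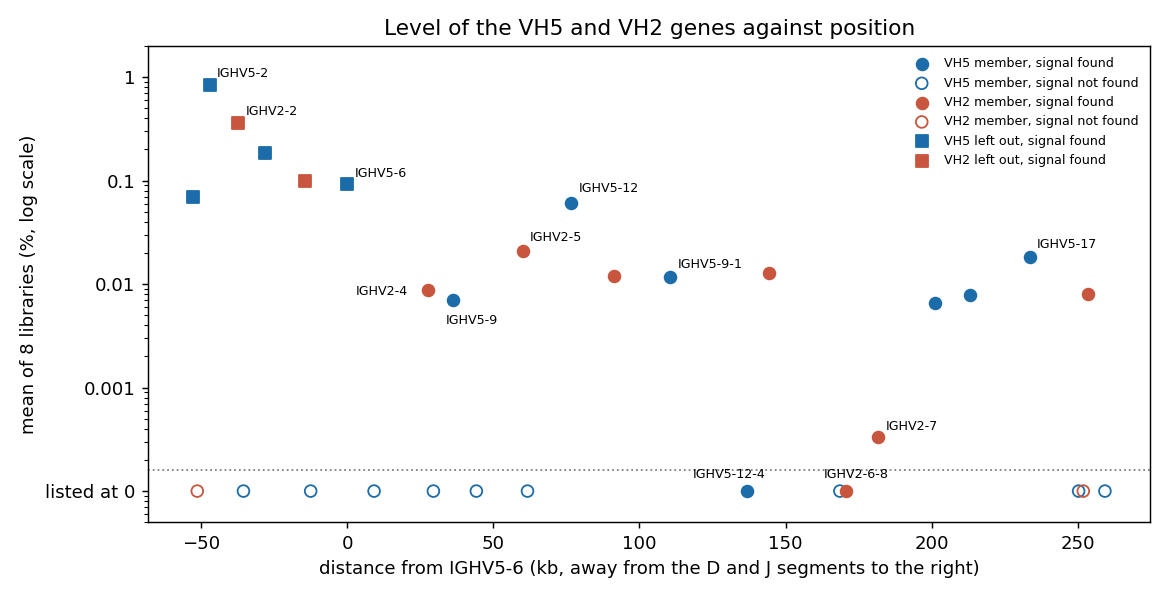
Mean of 8 libraries, in percent on a log axis, for the VH5 and VH2 genes against the distance from IGHV5-6 in kb, with the D and J segments to the left. Circles are members, squares the 6 left-out proximal genes, filled symbols have a recombination signal with a spacer of 23 bases, and genes below the dotted line were listed at 0 in all libraries. IGHV5-21, at 694.5 kb, is not drawn. The members without a signal lie at 0 on both sides of IGHV5-6, and the members with one show no steady fall between 27.8 and 253.6 kb.

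Over the 12 members of the cluster that have a signal and a core, Spearman's rho between distance and mean level was -0.23, and over the 6 left-out genes it was -0.14. Over these 18 genes joined it was -0.74, a value that the choice of the sets largely fixes, since the left-out genes are both proximal and set apart for their use. The number of matching heptamer and nonamer bases had a rho of -0.04 with the level over the 12 members. These coefficients are across genes, which share their libraries and in part their sequence and are not independent replicates.

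Per gene the left-out proximal genes were used far more than the members, although IGHV5-12 reached the level of IGHV5-1. The left-out proximal genes had a mean of 0.276% ± 0.0386 per gene (SD, n = 8), and the members 0.00675% ± 0.000696 per gene (SD, n = 8). Summed, the 26 members had between 0.141% and 0.194% in a library, with a median of 0.179%, a mean of 0.175% and an SD of 0.0181. The 6 left-out genes summed to between 1.45% and 2.10%. Over all listed VH genes other than IGHV1-72 and IGHV1-53, the pair whose values the study sets aside because of the B1-8hi gene, the members held 7.86% ± 0.833 and the left-out genes 73.6% ± 2.32 (SD, n = 8). This contrast is a description, since the left-out genes were set apart for their high use.

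Near-identical genes limit how some values can be read. IGHV2-4 was 98.0% identical to IGHV2-2 by blastn over at least 90% of the length, IGHV2-5 97.6% identical to IGHV2-4, IGHV2-9 97.6% identical to IGHV2-6-8, and IGHV5-7 99.3% identical to IGHV5-10. IGHV2-2 had 0.364% ± 0.0370 (SD, n = 8), which is 41.2-fold the mean of IGHV2-4 and 17.3-fold that of IGHV2-5. The zeros of IGHV2-6-8 and the values of IGHV2-9 rest in the same way on how reads that match both were assigned. The rule for such reads is not given in the sources used here, and its part in these values was not tested.

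The summed values of the VH5 and of the VH2 members were compared within each library, as sums over 17 and 9 genes. The 17 VH5 members summed to between 0.0937% and 0.137%, with a median of 0.107% and a mean of 0.112% ± 0.0134 (SD, n = 8). The 9 VH2 members summed to between 0.0472% and 0.0784%, with a median of 0.0640% and a mean of 0.0630% ± 0.0105 (SD, n = 8). The VH5 sum was higher in 8 of 8 libraries and the ranges did not overlap. The mean difference was 0.0494 percentage points ± 0.0159 (SD), with a two-sided p = 0.00781 in an exact sign-flip permutation test over the 8 libraries, which is the smallest p that 8 libraries allow, and an adjusted p = 0.00781 over the 4 tests of this kind.

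Per gene, a comparison added after seeing the data, the direction turned. The VH5 members had 0.00662% ± 0.000789 and the VH2 members 0.00700% ± 0.00117 per gene (SD, n = 8), with VH2 higher in 6 of 8 libraries and no difference past the threshold (adjusted p = 0.445, exact permutation test). RefSeq classes 7 members of each family as V segments, and over these alone VH5 had 0.0160% and VH2 0.00900% per gene, with VH5 higher in 8 of 8 libraries and an adjusted p = 0.00781 in the exact permutation test. This call too was lost without IGHV5-12, where the other 6 VH5 V segments had 0.00855% per gene, with VH5 higher in 3 of 8 libraries and an adjusted p = 0.609 in the exact permutation test.

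The difference of sums rested on IGHV5-12. Without it the remaining VH5 members had 0.0518% and lay below the VH2 members by 0.0113 percentage points on the mean, with VH5 higher in 2 of 8 libraries and an adjusted p = 0.115 in the exact permutation test. Leaving out the near-identical genes raised the difference to 0.0873 percentage points, which their choice fixes, since it removes IGHV2-4, IGHV2-5 and IGHV2-9 and among the VH5 members only genes listed at 0.

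The 13 members nearest to the D segments were compared with the other 13 in the same way. The first 13, from IGHV2-1 to IGHV5-9-1, summed to between 0.0893% and 0.145%, with a median of 0.126% and a mean of 0.121% ± 0.0172 (SD, n = 8). The last 13, from IGHV5-12-4 outward, summed to between 0.0379% and 0.0752%, with a median of 0.0534% and a mean of 0.0543% ± 0.0129 (SD, n = 8). The first 13 were higher in 8 of 8 libraries, by 0.0669 percentage points ± 0.0244 (SD), with p = 0.00781 and an adjusted p = 0.00781 in the exact permutation test. Without IGHV5-12 the difference fell to 0.00622 percentage points, with the first 13 higher in 6 of 8 libraries and an adjusted p = 0.312 in the exact permutation test.

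**Figure D3:**
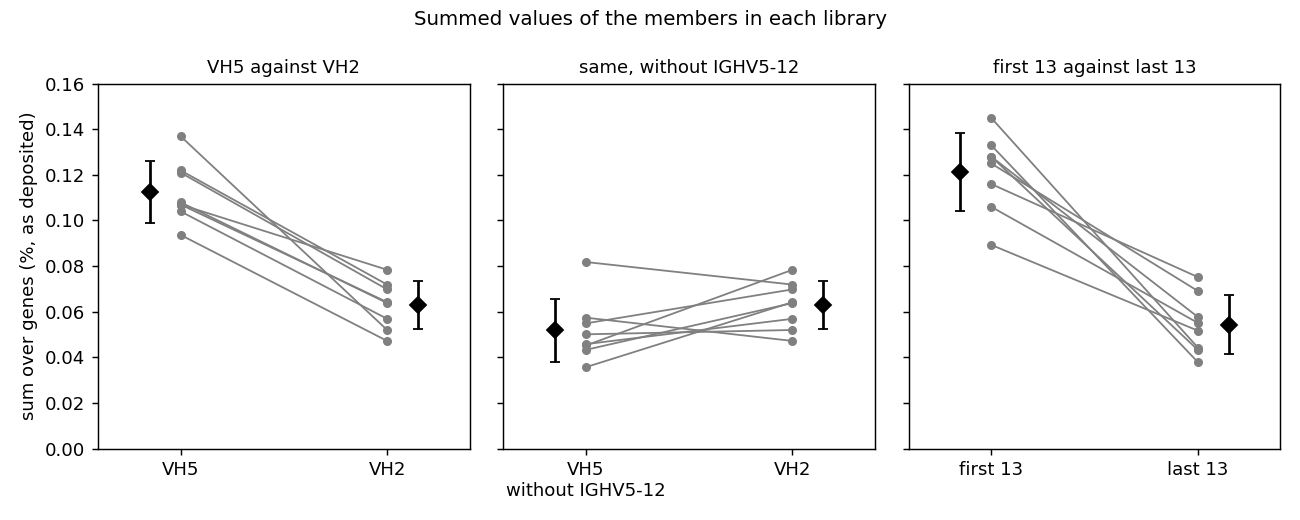
Sums of the deposited values per library, in percent as deposited, with each line joining the 2 sums of a library and diamonds giving mean and SD of 8 libraries. VH5 members lie above VH2 members in 8 of 8 libraries, in 2 of 8 once IGHV5-12 is left out, and the first 13 members lie above the last 13 in 8 of 8.

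The members were next set against the other VH families, most of whose genes lie further out, as a mean per gene, so that sets of unequal size can be compared. The 59 genes of the middle families VH3, VH4 and VH6 to VH16 had between 0.00261% and 0.00409% per gene, with a median of 0.00369% and a mean of 0.00357% ± 0.000470 (SD, n = 8). The members, with 0.00542% to 0.00746% per gene and a median of 0.00687%, were higher in 8 of 8 libraries without overlap. The difference was 0.00318 percentage points per gene ± 0.000674 (SD), with p = 0.00781 and an adjusted p = 0.00781 in the exact permutation test. Without IGHV5-12 the members had 0.00459% per gene and the difference was 0.00102, with an adjusted p = 0.0156 in the exact permutation test.

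The 90 VH1 genes, the distal J558 family without IGHV1-72 and IGHV1-53, had between 0.00186% and 0.00265% per gene, with a median of 0.00228% and a mean of 0.00225% ± 0.000275 (SD, n = 8). The members were above them in 8 of 8 libraries, by 0.00450 percentage points per gene ± 0.000774 (SD), with p = 0.00781 and an adjusted p = 0.00781 in the exact permutation test. The difference without IGHV5-12 was 0.00234, with an adjusted p = 0.0156 in the exact permutation test. With V segments alone, a restriction chosen after the values had been seen, the members had 0.0125% per gene, the middle families 0.00444% and the VH1 genes 0.00340%, and the members were higher in 8 of 8 libraries in both comparisons. Counted as genes above 0 in all 8 libraries, 9 of 26 members stood beside 14 of 59 middle and 11 of 90 VH1 genes.

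**Figure D4:**
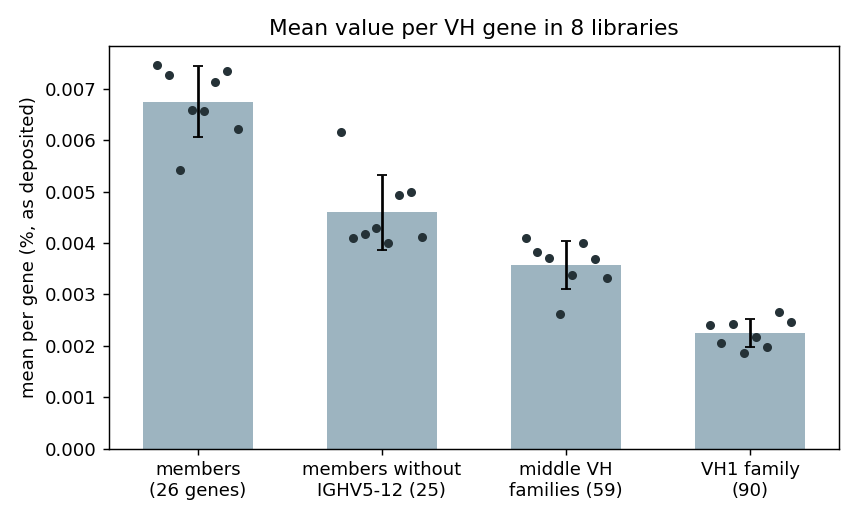
Mean deposited value per VH gene, in percent as deposited, for the 26 members, the 25 members without IGHV5-12, the 59 genes of the middle families and the 90 VH1 genes. Points are the 8 libraries, bars the mean and error bars the SD. The members lie at 0.00542% to 0.00746%, above the middle families at 0.00261% to 0.00409% and the VH1 genes at 0.00186% to 0.00265%.

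Across libraries, the members' sum was not shown to follow the sums of other VH genes. Against the 6 left-out genes Pearson's r was 0.475 (exact permutation p = 0.202, adjusted p = 0.404) and Spearman's rho 0.571 (exact permutation p = 0.151, adjusted p = 0.302) over 8 libraries. Against the 149 other VH genes r was 0.186 (exact permutation p = 0.581, adjusted p = 0.581) and rho 0.357 (exact permutation p = 0.389, adjusted p = 0.389). Without the 2 libraries whose member sums lay farthest from the median, r was 0.647 and 0.844. All of these values share one total per library, and 2 relations were computed. Taken as shares of all listed VH genes without IGHV1-72 and IGHV1-53, r with the 6 left-out genes turned to -0.519 (adjusted p = 0.377, exact permutation test).

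The chromatin mark H3K27ac, which marks active promoters and enhancers, was measured by ChIP-seq in 1 library of pro-B cells with the genotype Rag1(Cre/Cre), an earlier stage than the cells above. None of the 26 members overlapped one of its 17935 peaks, and none had a peak within 5 kb. The distance from a member to its nearest peak ranged from 44.9 to 277.3 kb, with a median of 198.9 kb. Of all 183 listed VH genes, 5 overlapped a peak and 12 had one within 5 kb. The left-out proximal genes lay 141.4 to 193.9 kb from a peak, so that members with values of 0 and the most used genes had no peak alike.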

How the data were processed

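The authors deposited 1 percent value per VH gene and library, made from MiSeq reads with molecular identifiers and JH primers. The study names R 3.3.3 only for preparing its figures from such values. The aligner for these reads and the rule for reads that match several genes are not given in the sources used here. The values were used as deposited, so depth is unknown. Positions are those of the study's VH list on mm9, and the deposited H3K27ac peaks are on mm9 too. Libraries, grouped by their labels, were numbered in accession order, and for no gene was a value above 0 exactly equal in a pair of libraries at the full precision deposited.

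Sums and means per gene were compared within libraries by two-sided exact sign-flip permutation tests (Python 3.11.15, numpy 2.4.6, scipy 1.17.1), with Benjamini-Hochberg adjustment over 4 tests and over 2 relations at 0.05, and the test was tried on simulated data. Sequences came from the mm9 assembly of chromosome 12 (pysam 0.24.0), gene classes from RefSeq by symbol, and near-identity (97% over 90% of the length) from blastn 2.17.0. Figures were drawn with matplotlib 3.10.9. All members are named, those above 0 in at least 7 libraries with their ranges, and other genes only where left out, near-identical or setting the total. The members, lists and tests were chosen with earlier results of these data known. Alternatives were the total, IGHV5-12, near-identical genes, ranks, each library in turn and, chosen after seeing the data, unlisted rows, log2 ratios, VH5 and VH2 per gene and V segments alone. Of the 230 rows of each file, 47 are not in the study's list and were left out of the comparisons.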

Additional observations from a re-analysis of the deposited data

Results flagged for a closer look

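Of the 19 members and sums that could be examined for a library standing apart, 2 had a highest library whose gap to the next, divided by the range of the 8, was above Dixon's 95% critical value for 8 samples. IGHV5-16 reached 0.0234% in library 7, while the other 7 lay between 0.00286% and 0.0113% (gap over range 0.590). IGHV5-15 reached 0.0212% in library 1, while the others lay between 0 and 0.00964% (gap over range 0.544). Chance flags about 1 in 20 such groups. The 2 libraries differ, and no other member or sum was flagged.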

How the results depend on the processing

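No paired analysis was possible because there is a single group and so no samples to pair between groups, while the 4 comparisons pair gene sets within each library. The 4 comparisons of members kept their direction and an adjusted p below 0.05 when values were taken as percentages of all listed VH genes without IGHV1-72 and IGHV1-53, on ranks and with each library left out, and so they did without near-identical genes, where for VH5 and VH2 the choice of genes fixes the direction. Without IGHV5-12 the VH5 minus VH2 difference reversed to -0.0113 percentage points, no longer past the threshold, and the difference between the first and last 13 members fell to 0.00622. Per gene the VH5 minus VH2 difference was -0.000388, -0.000114 with the unlisted rows added and -0.000456 over V segments without IGHV5-12, all chosen after seeing the data and none past the threshold. The cause was not tested. On the share of all listed VH genes, r between the members and the left-out proximal genes changed from 0.475 to -0.519 (adjusted p = 0.377, exact permutation test), and the cause was not tested. Without 1 library this r ranged from 0.272 to 0.697, the upper value without library 3, where the adjusted p fell from 0.404 to 0.05 and so lay at the threshold (exact permutation test). For the other VH genes r ranged from 0.0227 to 0.566 and did not reach it. Of the recomputed values of the 4 comparisons and 2 relations, 73 kept direction and side of the threshold, 5 reversed and 1 fell short of it. Unknown depth limits every value near the smallest ones listed.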

Other observations

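The files also hold 19 rows with VH5 or VH2 names that the study's position list does not contain, so that their place in the cluster is not given. Summed, they held 0.0726% ± 0.0115 (SD, n = 8), against 0.175% for the members. The highest were IGHV2-5-1 with 0.0165% ± 0.00238, IGHV5-12-1 with 0.0152% ± 0.00691, IGHV2-6-1 with 0.0112% ± 0.00435 and IGHV2-6-2 with 0.0110% ± 0.00619 (SD, n = 8), each above 0 in 8 of 8 libraries and named after their values were seen. These means lie between those of the members IGHV2-5 and IGHV2-4. With all 19 added to the family sums, a step chosen after seeing the data, VH5 had 0.137% over 25 genes and VH2 0.112% over 20, VH5 was higher in 7 of 8 libraries, and the adjusted p was 0.0156 (exact permutation test). Per gene the direction turned, with 0.00546% for VH5 and 0.00558% for VH2, VH2 higher in 6 of 8 libraries and an adjusted p of 0.773 (exact permutation test).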
